A study of Mus musculus with 12 samples.

Results

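Gene expression was compared between individual S-shaped bodies and pools of 20 S-shaped bodies from the developing mouse kidney. The comparison takes the 6 S-shaped body arrays of a series of 12: 3 arrays hybridised with RNA of 1 structure each (replicates 3, 4 and 5) and 3 arrays with RNA of 20 structures each (replicates 1, 2 and 3). All 12422 probe sets that are not spike-in or other controls were used, of which 10833 carry a single gene symbol, for 8251 genes. Both groups are wild-type Swiss Webster embryos at E14.5 (Theiler stage 22) of unrecorded sex, with no treatment. Structures were microdissected by their shape, and their RNA went through 2 rounds of T7 amplification before labelling. The other 6 arrays, used here as reference points only, hold 3 pools of 20 renal vesicles and 3 unpooled collecting ducts of the same strain and stage. The labels call the arrays biological replicates but do not name the embryos, so p-values measure the spread between these samples. The submitters tried single structures beside pools and chose pools for the rest of their work, judging the pools more sensitive for genes known from this structure, with Wt1, Wnt4 and Pax8 among the early genes they name.

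The S-shaped body is the stage of nephron formation that follows the renal vesicle and the comma-shaped body. Its segments are already patterned along the axis from glomerulus to collecting duct: the proximal limb gives podocytes and Bowman's capsule, the middle part gives proximal tubule and loop of Henle, and the distal limb joins the ureteric tip. Endothelial cells migrate into the cleft next to the podocyte precursors, where the capillary tuft will form. An S-shaped body lifted from the kidney can therefore carry endothelium, blood cells and surrounding stroma, and a single one is a small source of RNA.

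Podocyte and endothelial transcripts were abundant in single and in pooled S-shaped bodies. Expression levels are given as log2(quantile-normalised intensity + 7.22), where 2.85 is the floor of a probe set with no positive signal. Foxc2, a forkhead transcription factor of podocyte precursors, had levels of 11.14, 10.77 and 10.47 in the single structures and 10.70, 10.85 and 10.78 in the pools. The groups overlapped and the difference, single minus pooled, was 0.02 (95% confidence interval -0.38 to 0.41). Renal vesicles had Foxc2 at 10.46 ± 0.43 and collecting ducts at 3.12 ± 0.39 (SD, n = 3). Of 8 defining S-shaped body genes measured, 3, 6 and 3 stood above background in the single structures and 5 in each pool. Their summed normalised intensity was 5302, 4260 and 5047 in the singles, 5281, 5090 and 4565 in the pools and 74.6 to 82.6 in collecting ducts. In each renal vesicle pool 6 of the 8 were above background, with sums of 1904, 5396 and 2653. The sums of vesicles and S-shaped bodies overlapped, so these genes do not set the 2 stages apart. Pax2 and Podxl, which mark the early nephron and the podocyte surface, were under background on all 6 arrays, so these probe sets do not bear out the label.

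Other cells came along with the S-shaped bodies in both groups. All 8 defining endothelial genes were above background in every pool, and 7, 8 and 8 in the singles. Their summed intensity was 7563, 5540 and 7132 in the singles and 6919, 5797 and 5987 in the pools, against 27.9 to 70.5 in collecting ducts. Stromal genes numbered 7, 8 and 7 of 8 above background in the singles and 8 in each pool. Their sum was 7403, 5467 and 6767 in the singles and 5180, 4974 and 3909 in the pools, so every single structure lay above every pool. Over the 34 stromal genes measured, the mean log2 level overlapped between the groups. Red cell genes summed to 4668, 1153 and 3484 in the singles and 5674, 5206 and 6925 in the pools, and every pool lay above every single structure. Of 8 collecting duct genes, 2, 3 and 3 were above background in the singles and 2, 5 and 3 in the pools, with Krt18, Krt19 and Ret under background on all 6 arrays. Their sum was 729, 391 and 1593 in the singles and 888, 1242 and 600 in the pools, against 6696 to 7249 in collecting ducts. Macrophage genes were sparse, at 1, 1 and 2 of 6 above background in the singles and 1, 2 and 1 in the pools, with Adgre1, Cd68, Ptprc and Fcer1g under background throughout. The part of these other cells in the differences reported here was not tested, and in such mixed samples fewer cells of a type and less RNA per cell cannot be told apart.

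The single structures gave much dimmer arrays than the pools. Mean deposited intensity over the 12422 probe sets was 21.4, 48.9 and 70.6 in the singles and 203, 235 and 239 in the pools, a ratio of 4.80. No single structure reached the dimmest pool. The 9 hybridisation control probe sets, transcripts added after amplification, averaged 2293, 2945 and 2947 in the singles and 1878, 2423 and 1876 in the pools, which overlapped (two-sided exact permutation p = 0.2). A probe set was counted as above background where its signal exceeded the size of the array's negative tail. By that measure 48.3%, 54.4% and 52.2% of probe sets were above background in the singles and 56.5%, 58.3% and 55.1% in the pools. The groups did not overlap (exact permutation p = 0.1, the smallest that 3 against 3 arrays allow, and 0.129 after Benjamini-Hochberg adjustment over 9 array measures). The 3′ to 5′ signal ratio of the actin control, which rises as transcripts are shortened, was 85.7 ± 8.64 in the singles and 38.3 ± 7.65 in the pools (SD, n = 3 each). The same ratio for the Gapdh control ran the other way, at 10.8 ± 2.00 and 23.9 ± 3.82, so the controls give no common direction. Single or pooled status, RNA input and array brightness cannot be told apart in this design.

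**Figure D1:**
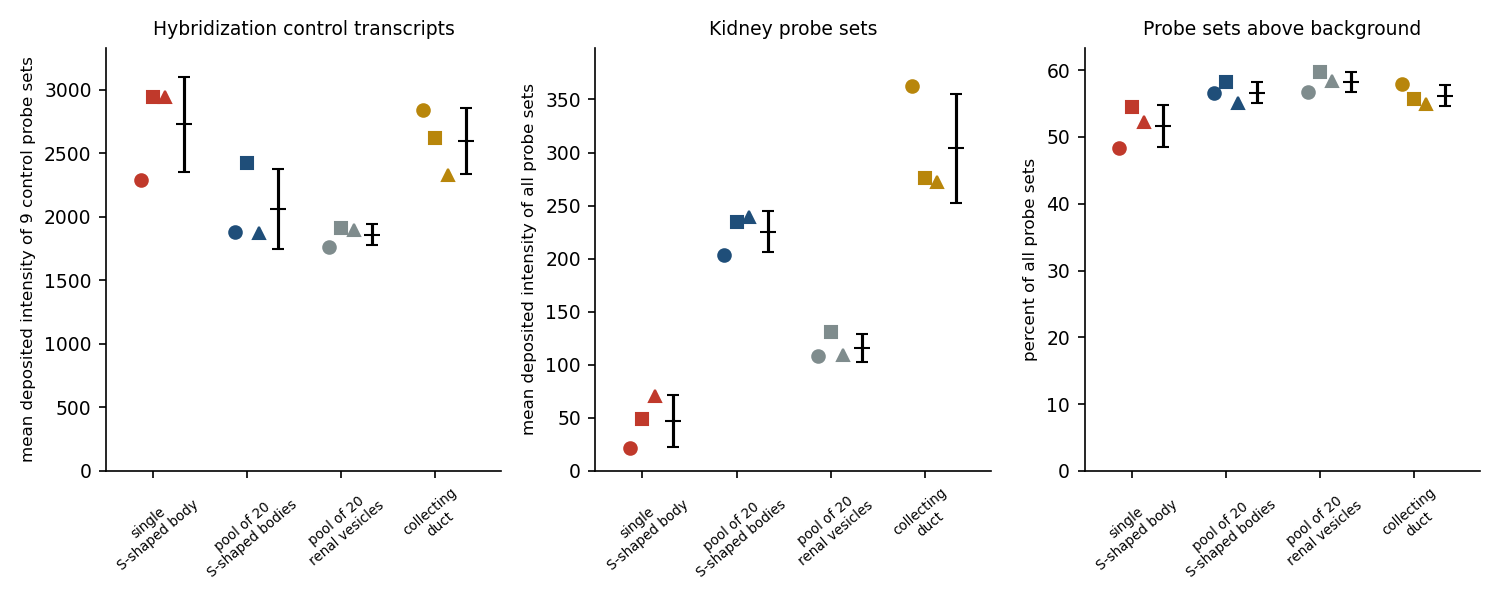
Hybridisation control intensity, mean deposited intensity and percent of probe sets above background for each of the 12 arrays, by group, with the mean and SD of 3 arrays; symbols mark replicate numbers. The single S-shaped bodies lie at 21.4 to 70.6 in mean intensity against 203 to 239 for the pools, while their control spikes lie at 2293 to 2947 against 1876 to 2423.

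Most genes detected in the pools were also detected in single structures, and the losses were among dim genes. Of 6335 probe sets above background in all 3 pools, 5082 (80.2%) were above background in all 3 single structures and 157 (2.48%) in none. Of 5284 detected in all 3 singles, 5082 (96.2%) were detected in all 3 pools and 31 in none. Among probe sets with a mean pooled level under 6, 39.8% of 1519 were detected in all 3 singles and 9.68% in none. That share was 80.8% of 1455 between levels 6 and 7, 95.8% of 1281 between 7 and 8, and 99.5% of 978 between 8 and 9. It was 100% above level 9. Read the other way, from the single structures to the pools, 79.5% of 589 probe sets with a single level under 6 and 95% of 1377 between 6 and 7 were found in all 3 pools. A probe set detected in both of any 2 pools was detected in the remaining pool in 95.2% to 98.0% of cases, and in single replicates 3, 4 and 5 in 82.2% to 83.3%, 91.2% to 92.2% and 90.3% to 91.2%.

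By gene, 4909 were above background in all 3 pools and 4035 of these (82.2%) in all 3 single structures. Proximal tubule genes, most of which are expressed only weakly at this stage, kept 2 of 5. Genes of early nephron patterning kept 10 of 13, podocyte precursor genes 15 of 17 and endothelial genes 21 of 23. Stromal genes kept 17 of 25, epithelial junction and polarity genes 14 of 20 and Notch pathway genes 10 of 14. Ureteric bud and collecting duct genes kept 8 of 8, cytosolic ribosomal proteins 21 of 22, actin cytoskeleton genes 33 of 34 and subunits of oxidative phosphorylation 45 of 51, the last near the share over all genes.

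**Figure D2:**
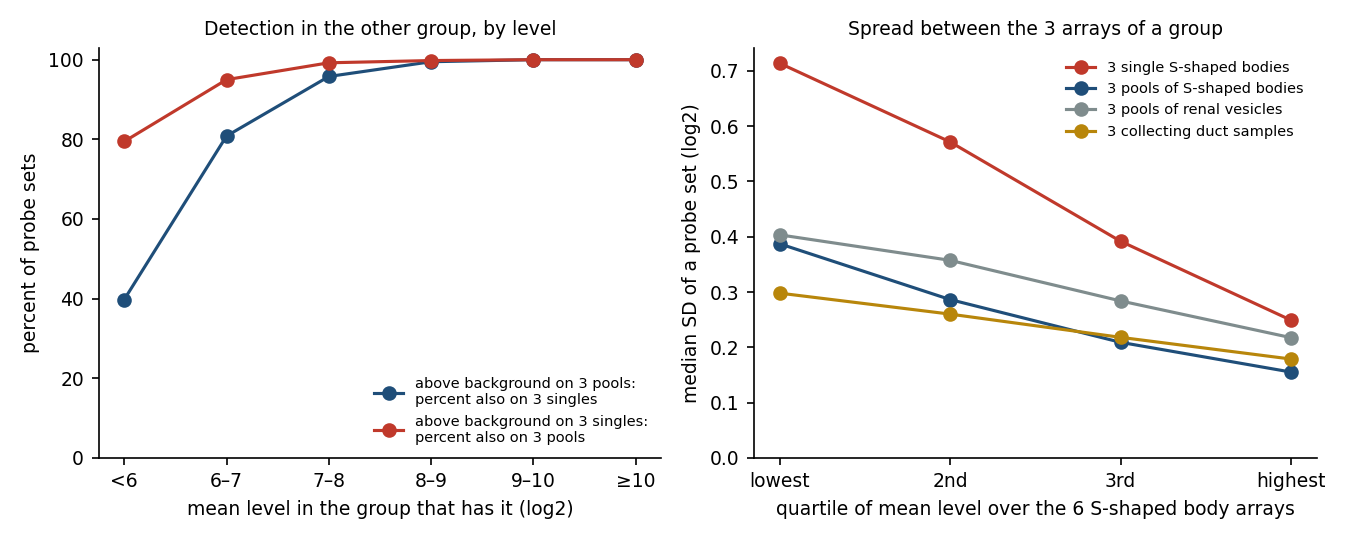
Left, percent of probe sets detected on all 3 arrays of one group that were also detected on all 3 arrays of the other, by mean level (log2) in the first group; right, median SD over 3 arrays by quartile of mean level, for the 4 sample groups. Detection of pooled probe sets in singles climbs from 39.8% under level 6 to 100% above level 9, and the median SD of the single structures falls from 0.71 in the lowest quartile to 0.25 in the highest, above that of the pools in each.

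Few genes passed the test of single against pooled S-shaped bodies. With limma on the 6 arrays and a Benjamini-Hochberg adjusted p under 0.05, 37 of 9316 probe sets tested (0.397%) differed, 23 (0.247%) higher and 14 (0.15%) lower in single structures. With each gene taken once, by its brightest probe set, 23 of 6744 genes passed (0.341%), 15 higher and 8 lower. Arrays of the groups did not overlap for 2321 probe sets (24.9%), or for 25.1% of genes, and 17.9% of genes had an unadjusted p under 0.05 (555 higher, 652 lower). Groups without any difference would give shares near 0.1 and 0.05, though correlated genes make such shares vary. The small number of calls does not show that the groups are alike. Scaling each array to its 75th percentile in place of quantile normalisation gave 114 higher and 32 lower probe sets. Leaving out single replicate 5 gave 72 calls, and leaving out any other array gave 1 to 12, the lowest without pool 2. The number of calls moved with each of them: without pool 1 it was 4, without pool 3 it was 3, without single replicate 3 it was 4 and without single replicate 4 it was 12. Of 18 named genes that passed, 15 kept the call without single replicate 5, 2 without single replicate 4, 1 without pool 1 or pool 3, and 0 without pool 2 or single replicate 3. None of the 18 kept it with no filter on dim probe sets, or with values floored at the background level. Many calls rest on dim signal: 11 of the 14 lower probe sets were under background in all 3 singles and 8 of the 23 higher ones in all 3 pools.

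Podocyte precursor genes were abundant in single S-shaped bodies and none of 22 tested passed in either direction; the list's median difference was -0.08, beside -0.04 over all 6744 genes. Wt1, the zinc-finger regulator of nephron induction and podocytes, had levels of 8.96, 8.50 and 8.41 in singles and 8.28, 7.87 and 8.37 in pools. The single values all lay above the pooled ones, but the difference of 0.45 (-0.05 to 0.95) had a limma adjusted p of 0.329. Ptpro, the podocyte receptor tyrosine phosphatase known as GLEPP1, had levels of 11.30, 10.98 and 11.65 in singles and 11.66, 11.53 and 11.21 in pools. The groups overlapped (difference -0.16, -0.59 to 0.28). Cdkn1c, the cyclin-dependent kinase inhibitor p57 that podocytes acquire as they leave the cell cycle, had 13.16, 12.71 and 13.16 in singles and 12.99, 12.99 and 12.62 in pools. It was among the brightest genes in either group. Tcf21, a helix-loop-helix factor of podocytes and stroma, had 9.56, 9.62 and 9.90 against 9.56, 9.50 and 10.35, again overlapping. Efnb1, an ephrin ligand at the podocyte slit diaphragm, had 10.18, 10.27 and 10.13 in singles and 9.80, 9.74 and 9.33 in pools, without overlap (difference 0.57, 0.21 to 0.93, adjusted p = 0.138). Synpo, an actin-associated podocyte protein, had 7.81, 9.68 and 10.20 in singles and 9.61, 9.93 and 8.98 in pools. Single replicate 3 was the lowest of the 6 for Synpo, and also for Vegfa, the endothelial growth factor made by podocytes, at 6.69 against 6.95 and 8.67 in the other singles and 8.28, 8.16 and 7.61 in the pools.

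Among genes that pattern the early nephron, none of 19 tested passed, with a median difference of 0.04. At an unadjusted p under 0.05, 1 was higher and 0 lower, beside 17.9% of all genes in either direction. Some were near background in both groups and others were bright. Pax8, a paired-box factor required for nephron formation, was at 2.85, 5.85 and 4.80 in singles and 4.95, 5.70 and 6.08 in pools. It was above background in 1 single and all 3 pools, and the difference of -1.08 (-2.74 to 0.59, adjusted p = 0.475) spans both directions. Lhx1, the LIM-homeobox factor of the renal vesicle, had the same detection pattern, 1 single and 3 pools, with levels of 5.19, 6.01 and 5.0 against 5.79, 5.03 and 5.77. Wnt4, the Wnt ligand that drives the mesenchyme to epithelium, was at the floor of 2.85 on all 6 arrays and was not tested. Renal vesicles had 7.62 ± 0.24 (SD, n = 3) for Wnt4, 8.32 ± 0.11 for Pax8 and 7.19 ± 0.32 for Lhx1, so these probe sets do read signal at the earlier stage. Hey1, a target of Notch signalling in this tissue, had 8.12, 8.90 and 8.11 in singles and 8.51, 8.70 and 8.82 in pools, which overlapped. Sox4, an HMG-box factor, had 9.02, 9.50 and 8.79 in singles and 8.13, 7.59 and 7.91 in pools. Its groups did not overlap and its difference of 1.23 missed the threshold (0.69 to 1.76, adjusted p = 0.0724). Notch1, a Notch receptor, lay the other way, with 9.10, 9.27 and 8.80 against 10.45, 9.64 and 10.03 (difference -0.98, -1.50 to -0.47, adjusted p = 0.0906). Notch1 belongs to the Notch pathway list and is not among these 19, so the count of 0 lower leaves it out.

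**Figure D3:**
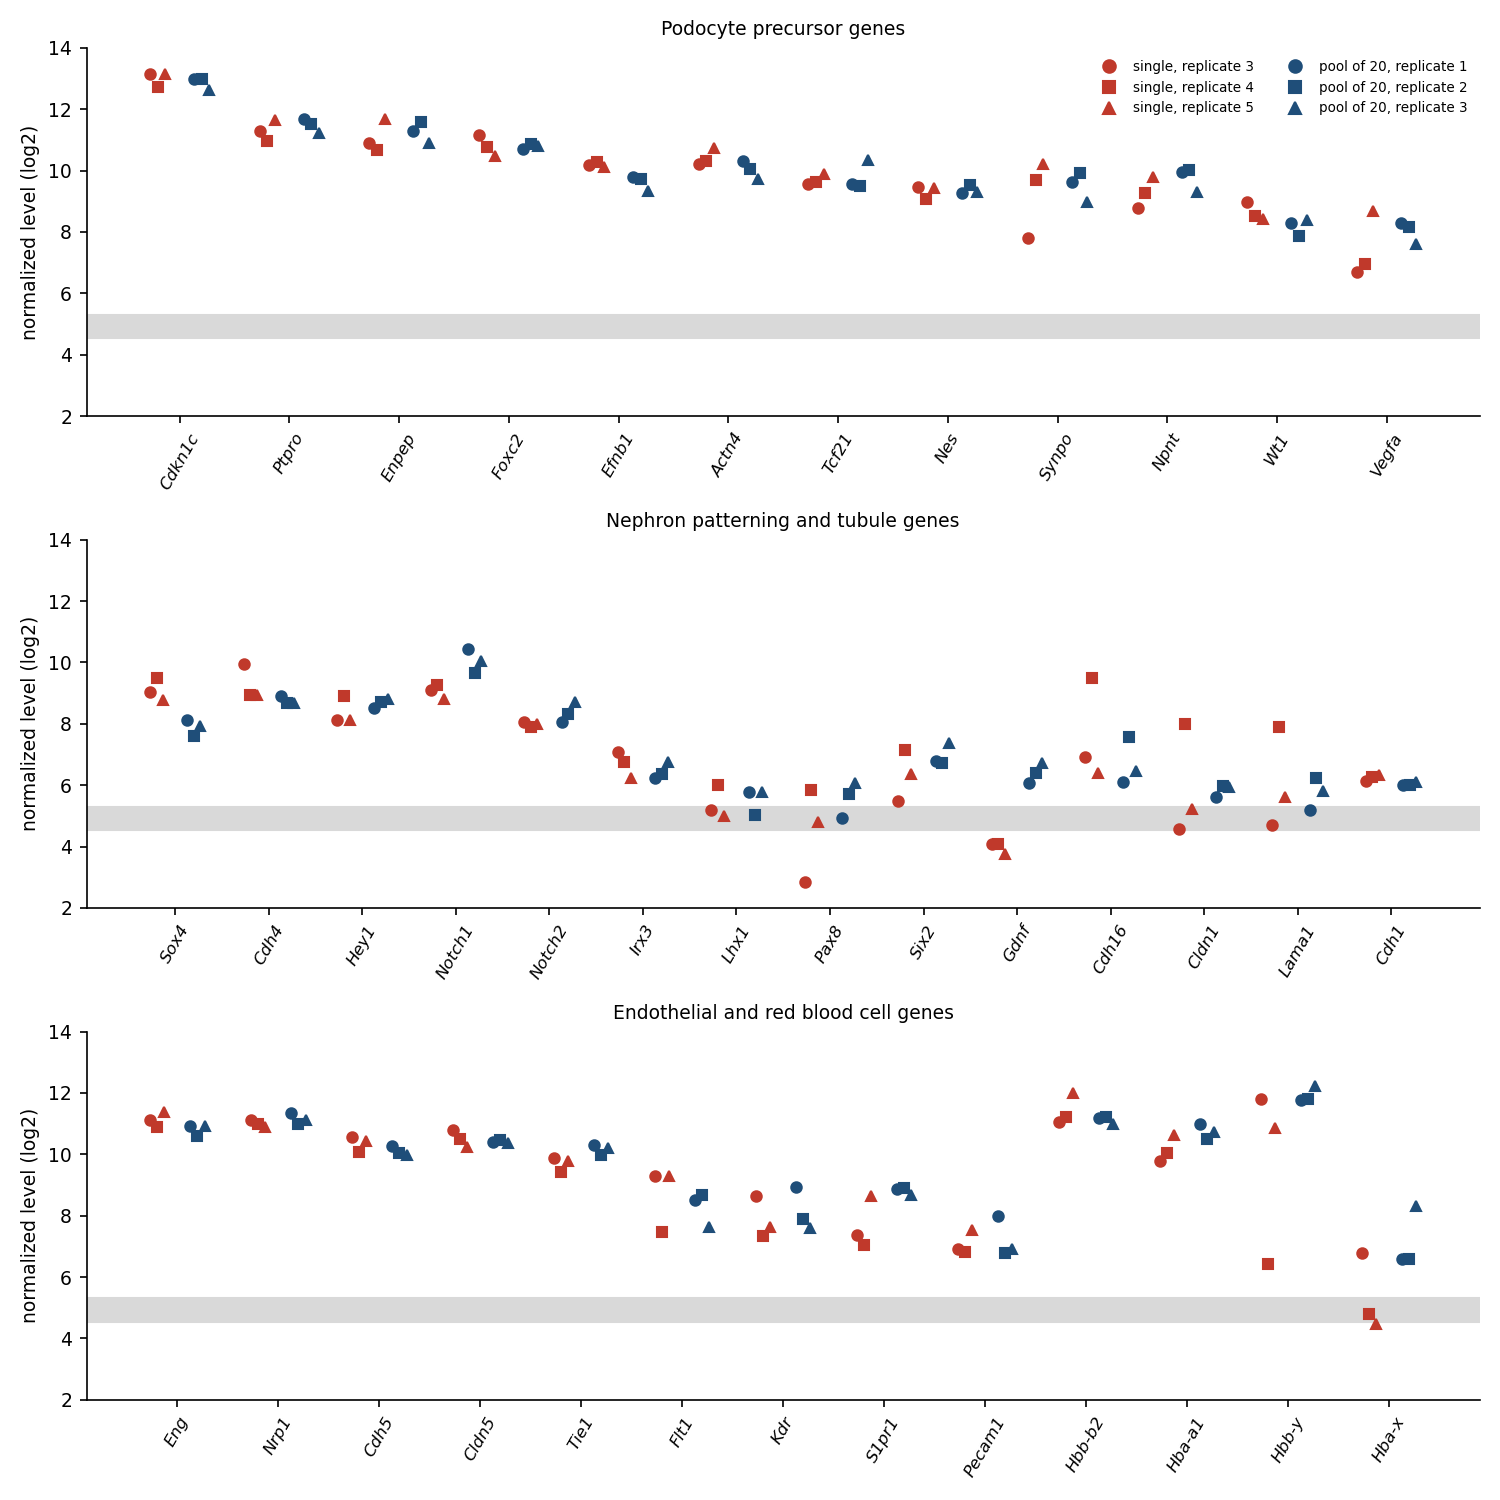
Levels (log2 of normalised intensity + 7.22) of podocyte precursor, nephron patterning and tubule, and endothelial and red cell genes, one point per array, single structures in red and pools in blue; the grey band is the range of the 6 arrays' background levels. Foxc2 and Ptpro lie above level 10 in all 6 arrays, Pax8 and Lhx1 lie around the background band, and Hbb-y falls to 6.41 in single replicate 4.

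Gdnf was the only member of the nephron progenitor list to pass, and it was lower in single structures. This ligand from the nephrogenic mesenchyme drives ureteric bud branching through the receptor Ret. Its levels were 4.08, 4.07 and 3.77 in singles and 6.08, 6.39 and 6.73 in pools. All 3 singles were under background and all 3 pools above it, which gives at least 2.56-fold lower in singles (fitted difference -2.43, -3.20 to -1.65, adjusted p = 0.0337). Its other probe set overlapped, at 5.33, 4.44 and 5.61 in singles and 2.85, 5.07 and 5.69 in pools (difference 0.59, adjusted p = 0.71). The probe sets therefore disagree on Gdnf. Six2, the transcription factor that maintains nephron progenitors, had 5.47, 7.13 and 6.37 in singles and 6.79, 6.71 and 7.37 in pools and did not pass (difference -0.63, -1.61 to 0.35, adjusted p = 0.475). Of 13 tested progenitor genes, the remaining 12 had no unadjusted p under 0.05.

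No tubule or collecting duct gene passed: 0 of 17 proximal (1 lower at an unadjusted p under 0.05), 0 of 12 distal and 0 of 18 collecting duct genes (none at an unadjusted p under 0.05 in the latter lists). Over all genes, 17.9% had an unadjusted p under 0.05. Cdh1, the epithelial cadherin, had 6.14, 6.27 and 6.32 in singles and 5.99, 6.01 and 6.11 in pools (difference 0.20, -0.38 to 0.79). Cdh6, a cadherin of the early nephron, was at 3.6, 4.86 and 3.84 against 4.22, 4.02 and 4.20, above background in 1 single only. Several tubule genes were high in one single structure alone. Cdh16, the kidney-specific cadherin of tubules and collecting duct, was at 9.50 in single replicate 4 but 6.93 and 6.40 in the other singles and 6.10, 7.57 and 6.47 in pools. Cldn1, a tight junction protein, was at 7.99 in replicate 4 against 4.57 and 5.23 in replicates 3 and 5, and 5.62, 5.99 and 5.94 in pools. Lama1, a laminin chain of early tubule basement membrane, was at 7.90 in replicate 4 against 4.69 and 5.60, and 5.19, 6.25 and 5.82 in pools. For Cdh16, Cldn1 and Lama1 the same single structure exceeded every pool. Its sum of collecting duct genes was the lowest of the 3 singles, but 5 of those 8 genes were under background in every single. What set this structure apart was not tested. Gata3, a collecting duct and stromal factor, had 7.54, 7.35 and 8.82 in singles and 8.09, 8.16 and 7.25 in pools. Krt8, a simple-epithelium keratin, was at 2.85, 5.13 and 5.90 against 2.85, 5.24 and 5.12, far under the 11.07 ± 0.15 of collecting ducts.

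Endothelial genes were bright in single S-shaped bodies and in pools. None of 26 tested passed, and the median difference was -0.11. At an unadjusted p under 0.05, 4 were lower and 0 higher, beside 17.9% of all genes in either direction. Cdh5, the endothelial cadherin, had 10.57, 10.08 and 10.44 in singles and 10.26, 10.03 and 9.98 in pools (difference 0.27, -0.10 to 0.64). Eng, an endothelial TGF-beta co-receptor, had 11.12, 10.89 and 11.36 against 10.93, 10.60 and 10.93, also overlapping. Kdr, the main VEGF receptor, had 8.63, 7.35 and 7.63 in singles and 8.93, 7.90 and 7.60 in pools. Pecam1, the adhesion molecule CD31, had 6.91, 6.83 and 7.53 against 7.98, 6.77 and 6.93. Variation among singles was plain for other members. Flt1, a VEGF receptor, had 9.29, 7.47 and 9.28, with replicate 4 the lowest, against 8.50, 8.67 and 7.64 in pools. S1pr1, a receptor for sphingosine phosphate, had 7.36, 7.06 and 8.64 in singles and 8.87, 8.89 and 8.67 in pools, without overlap (difference -1.12, -1.98 to -0.26, adjusted p = 0.181). Renal vesicles held less of these genes, with Cdh5 at 6.11 ± 1.47 and Flt1 at 3.85 ± 0.42 (SD, n = 3).

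Red cell genes varied widely among single structures. The median SD over the 17 tested was 0.95 in singles and 0.25 in pools, beside 0.42 and 0.23 over all genes. Hbb-y, the embryonic beta-like globin of primitive red cells, was at 11.79, 6.41 and 10.85 in singles and 11.78, 11.82 and 12.23 in pools. Single replicate 4 stood alone, and the difference of -2.26 (-4.93 to 0.42, adjusted p = 0.352) did not pass. Hbb-b2, an adult beta globin, showed no such dip, with 11.05, 11.21 and 11.99 in singles and 11.20, 11.23 and 10.97 in pools. Hba-a1, an alpha globin, had 9.79, 10.03 and 10.62 against 11, 10.51 and 10.73. Globin genes are close paralogs, so probe sets may share signal between them and their separate values are uncertain. None of the 17 passed (2 lower at an unadjusted p under 0.05, beside 17.9% of all genes in either direction), and their median difference was -0.51. That median was -0.13 without single replicate 3, -0.14 without single replicate 4, -0.33 without pool 3 and -0.83 without single replicate 5, and it was 0.01 with values floored at the background level.

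No basement membrane gene passed, and 15 of 21 tested had a difference above 0, beside 3135 of 6744 over all genes. In this list 6 were higher and 0 lower at an unadjusted p under 0.05, beside 555 and 652 of 6744 over all genes. The median difference was 0.29, beside -0.04 over all genes, and 0.12 without single replicate 4. Col4a1, a collagen IV chain found in all basement membranes, had 12.54, 12.42 and 12.46 in singles and 12.09, 12.06 and 12.02 in pools. The groups did not overlap (difference 0.42, 0.22 to 0.62, adjusted p = 0.0808). Lamc1, the laminin gamma chain shared by most laminins, had 11.29, 11.07 and 11.09 in singles and 10.59, 10.72 and 10.38 in pools (difference 0.59, 0.29 to 0.88, adjusted p = 0.0881). With all 12 arrays in the fit, Col4a1 (adjusted p = 0.0305), Lamb1 (0.0455) and Fbln2 (0.0481) of this list passed, all higher in singles, against a background of 5.12% of probe sets. Of 32 tested stromal genes 14 had a difference above 0, with a median of -0.09. Foxd1, a stromal forkhead factor, had 9.59, 9.30 and 9.14 in singles and 9.11, 8.85 and 8.51 in pools, and Cxcl12, a stromal chemokine, had 11.38, 11.12 and 11.59 against 11.10, 10.80 and 10.54. Neither passed (adjusted p = 0.239 and 0.169). Foxd1 and Cxcl12 are examples against the direction of most of the list. The mean level over the 34 measured stromal genes overlapped, at 6.44, 6.48 and 6.47 in singles and 6.55, 6.49 and 6.41 in pools. The sum of 8 defining stromal genes, given above, was higher in every single structure. Bright genes weigh most in that sum, and its part in the basement membrane values was not tested.

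No gene of the groups that respond to handling or reflect growth passed. Over all 6744 genes, 555 were higher and 652 lower at an unadjusted p under 0.05 (17.9%). Of 28 immediate early genes, which are induced within minutes of stimulation, none passed and 4 were higher and 3 lower at an unadjusted p under 0.05. Fos had 8.62, 10.29 and 8.23 in singles and 9.39, 9.41 and 9.43 in pools, with single replicate 4 the highest. Fosl2, a Fos-family factor, was higher in each single, at 6.83, 6.82 and 6.21 against 4.04, 4.65 and 4.98 (adjusted p = 0.0651). Ccn1, a matricellular protein induced by growth factors, was lower in each single, at 4.20, 6.08 and 5.68 against 7.27, 7.64 and 7.39 (adjusted p = 0.0881). Heat shock genes gave 0 of 30 called (3 higher, 6 lower at an unadjusted p under 0.05). Their median difference was -0.29, and -0.17 without single replicate 3. Of the 30, 11 had a difference above 0, beside 3135 of 6744 over all genes. Hspa1a, an inducible chaperone of the Hsp70 family, was at 7.61, 7.0 and 7.59 against 8.31, 7.20 and 6.52. Of 31 mitosis genes none passed, 2 higher and 6 lower at an unadjusted p under 0.05. Their median was -0.21, and the groups did not overlap for 13, beside 25.1% of all genes. Top2a, the topoisomerase of dividing cells, had 8.39, 9.07 and 8.77 in singles and 8.68, 8.65 and 8.54 in pools. Cenpa, the centromeric histone, had 8.03, 7.67 and 8.24 against 8.80, 8.74 and 8.89 (adjusted p = 0.0906). Of 40 splicing factors none passed, 6 in each direction had an unadjusted p under 0.05, and the groups did not overlap for 19 of 40, beside 25.1% of all genes. Their median was -0.14. Ribosomal proteins (0 of 29) and oxidative phosphorylation subunits (0 of 55) had medians of -0.01 and -0.02. Scaling to the 75th percentile moved the ribosomal median to 0.54 with 9 genes called higher, so the direction of that group depends on the scaling.

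In all, 25 of the 27 gene lists held no gene that passed. Scaling to the 75th percentile gave calls in 13 lists. The fit on all 12 arrays called 34 of 660 list members, beside 336 of all 6744 genes, a similar share. Besides Gdnf, the exception was Ldha, the lactate dehydrogenase subunit that closes glycolysis. Its levels were 8.02, 8.50 and 8.13 in singles and 9.73, 9.61 and 9.56 in pools. Every single lay under every pool (difference -1.42, -1.81 to -1.02, adjusted p = 0.0235), and renal vesicles and collecting ducts were higher still at 10.19 ± 0.11 and 10.70 ± 0.50 (SD, n = 3). The other 18 glycolytic genes tested did not pass. Of these, 1 was higher and 2 lower at an unadjusted p under 0.05, beside 17.9% of all genes. Hk1, the hexokinase of the first step, had 6.87, 7.15 and 9.66 in singles and 10.01, 9.30 and 9.29 in pools, so single replicate 5 overlapped the pools.

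The genes higher in single S-shaped bodies belonged to no one of the lists. Gdf3, a TGF-beta family ligand best known from early embryos, had the largest difference. Its levels were 8.72, 8.51 and 8.05 in singles and 3.37, 3.78 and 5.14 in pools, a difference of 4.33 (SE 0.47, adjusted p = 0.0235). Renal vesicles had Gdf3 at 7.26 ± 0.37 (SD, n = 3), and collecting ducts were at the floor of 2.85. The Gdf3 probe set that passed is of the _r_at class described below. The other Gdf3 probe set, too dim to be tested, was at 2.85, 2.97 and 2.85 in singles and 2.85 in each pool. It showed no signal above background in either group, so the difference rests on 1 probe set. Ddr2, a collagen-binding receptor tyrosine kinase of mesenchymal cells, had 7.19, 7.55 and 7.02 in singles and 4.45, 2.85 and 2.85 in pools. All pools were under background, which gives at least 6.01-fold higher. Serpind1, the thrombin inhibitor heparin cofactor II, was at 6.30, 7.48 and 6.41 against 2.85, 3.27 and 2.85 (at least 4.18-fold). Gpat4, an enzyme of glycerolipid synthesis, was at 6.65, 6.07 and 5.86 against 3.08, 2.85 and 3.27 (at least 2.88-fold). Eps15l1, an endocytic adaptor, was at 6.38, 5.86 and 5.05 against 2.85 in each pool (at least 2.14-fold). For Ddr2, Serpind1, Gpat4 and Eps15l1 no pool reached background. Gon4l, a nuclear regulator of transcription, was at 6.59, 7.72 and 6.62 in singles and 4.40, 4.76 and 4.28 in pools (difference 2.50, adjusted p = 0.0468). Renal vesicles and collecting ducts had more Gon4l than either group, at 8.51 ± 0.45 and 8.61 ± 0.19 (SD, n = 3).

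Higher genes with signal on all 6 arrays had differences from 0.91 to 2.23. Larp7, the protein that binds 7SK RNA, was at 8.48, 8.23 and 8.31 in singles and 6.15, 6.87 and 6.02 in pools (difference 2.00). Its 2 other tested probe sets overlapped between the groups. Their differences were 0.10 (-0.40 to 0.60, limma adjusted p = 0.845) and 1.40 (-0.11 to 2.91, adjusted p = 0.317), so the size rests on 1 probe set. Gnrh1, the gonadotropin-releasing hormone precursor, was at 7.44, 7.04 and 6.93 against 5.10, 5.27 and 5.38 (1.89). Lrp10, a receptor of the LDL-receptor family, was at 9.05, 8.57 and 8.46 against 6.82, 6.99 and 7.04 (1.75). Glb1, lysosomal beta-galactosidase, was at 7.87, 8.33 and 7.56 against 6.06, 6.45 and 6.06 (1.73). The directions of Larp7, Gnrh1, Lrp10 and Glb1 turn on the deposited scale without normalisation, where the median of all probe sets is itself -2.20. Bright genes with narrow spreads passed on smaller differences. Plxnd1, a semaphorin receptor of endothelium, was at 11.04, 10.93 and 10.91 in singles and 10.08, 9.96 and 10.09 in pools (difference 0.91, adjusted p = 0.0235). Nedd4, a ubiquitin ligase, was at 11.63, 11.67 and 11.49 against 10.64, 10.78 and 10.40 (0.99, adjusted p = 0.031). Plxnd1 and Nedd4, and the genes Plec, Rps27l and Htt (differences 1.67, 1.38 and 1.07), lie outside the rule for named genes and were chosen after their values were seen.

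The genes lower in single S-shaped bodies were mostly dim ones that the singles did not show at all. Senp3, a nucleolar SUMO protease, was at 2.85, 3.20 and 2.85 in singles and 6.87, 5.45 and 5.73 in pools (at least 1.97-fold lower). Kcnh2, the potassium channel hERG, was at 2.85 in each single and 6.15, 5.19 and 6.33 in pools (at least 1.80-fold). Casq1, a calcium-binding protein of skeletal muscle, was at 2.85 in each single and 5.31, 5.35 and 6.04 in pools (at least 1.44-fold). In these genes the pools themselves were close to the background band. Parl, a mitochondrial rhomboid protease, was at 4.0, 3.30 and 4.49 in singles and 6.56, 6.41 and 6.33 in pools (at least 2.62-fold). Saraf, a regulator of calcium entry, was above background on all 6 arrays, at 7.33, 7.19 and 7.65 against 8.85, 8.57 and 8.73 (difference -1.33, adjusted p = 0.0353). Eif3m, a subunit of translation initiation factor 3, was the brightest gene to pass. Its levels were 10.70, 10.78 and 10.88 in singles and 11.57, 11.47 and 11.54 in pools (difference -0.74, -0.98 to -0.50, adjusted p = 0.0337).

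**Figure D4:**
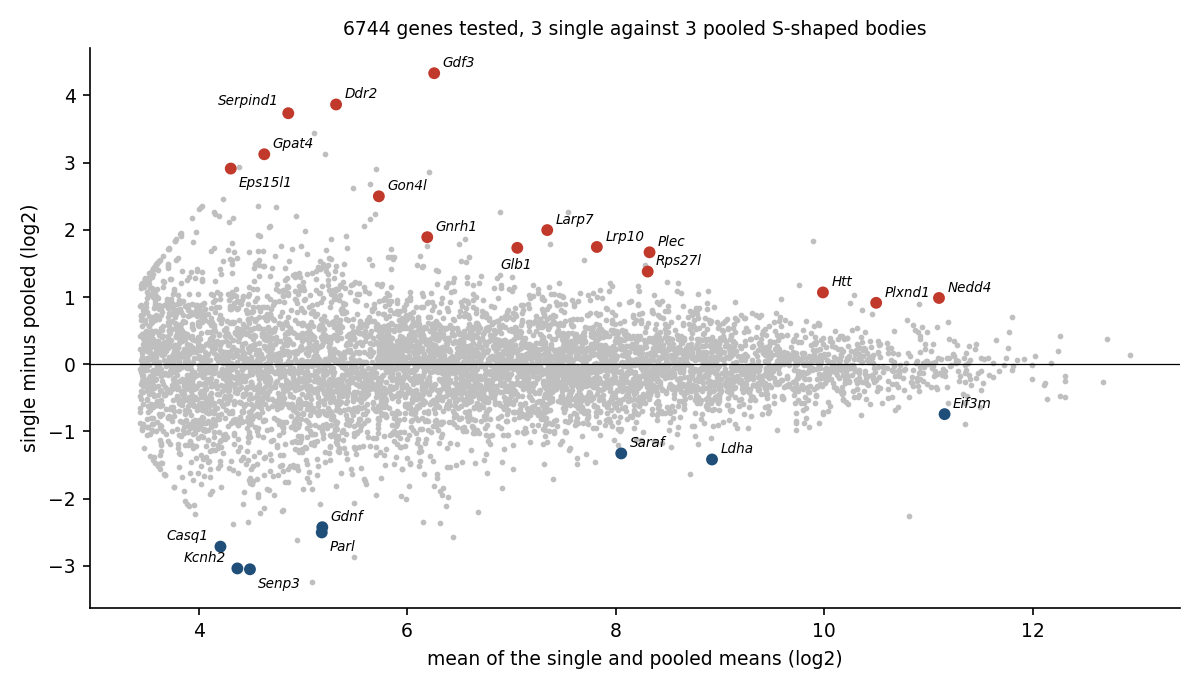
Mean level over the 6 arrays (log2, horizontal) against the difference single minus pooled (log2, vertical) for the 6744 tested genes; red genes passed the limma test higher in single structures, blue ones lower. The 15 higher and 8 lower genes spread over the whole range of levels, from dim genes such as Eps15l1 and Casq1 to bright ones such as Plxnd1 and Eif3m.

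Probe sets of one gene often disagreed where a call was made. Of the called genes, 15 had 17 other tested probe sets, of which 10 had the same sign and 0 passed. Tubb5, a beta tubulin, had a probe set at 2.85 in each single and 9.02, 8.66 and 8.47 in pools, at least 12.8-fold lower, the smallest adjusted p of the comparison (2.69e-04). A brighter Tubb5 probe set was at 9.59, 9.71 and 9.56 in singles and 10.62, 10.12 and 10.33 in pools (difference -0.73, adjusted p = 0.0826), so the sign was shared but not the size. Actb, cytoplasmic actin, had one probe set at 10.59, 10.06 and 10.13 in singles against 8.12, 8.13 and 7.84 in pools (difference 2.23, adjusted p = 0.00782). The brightest Actb probe set was at 11.36, 11.60 and 11.30 against 11.24, 11.11 and 10.85, also without overlap but with a difference of 0.35 (adjusted p = 0.244). Lrp10 had a second probe set at a difference of -0.21 and Glb1 one at -1.28, against the direction of the brighter ones. Nedd4 also had an opposed probe set, at 10.05, 10.33 and 9.81 in singles and 10.36, 10.41 and 9.99 in pools (-0.19, adjusted p = 0.614). Probe sets picked with some of the design's selection rules dropped, marked _r_at, made up 6.23% of those tested and 18.9% of those called (7 of 37). The called probe sets of Gdf3, Lrp10, Rps27l and Tubb5 were among them.

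Single structures differed more from each other than pools did. Correlation over 12422 probe sets was 0.912 to 0.939 between singles and 0.968 to 0.972 between pools. Single against pool ran from 0.902 to 0.953. Single replicate 3, which was also the dimmest array, correlated at 0.914 with the mean of the pools, replicate 4 at 0.947 and replicate 5 at 0.958. Each single was closer to the pooled S-shaped bodies than to renal vesicles (0.846, 0.898 and 0.880) or collecting ducts (0.808, 0.857 and 0.849). The average of the 3 singles reached 0.965 with the average of the pools, while each pool reached 0.976 to 0.979 with the mean of the other pools. These values are descriptions, since probe sets are not independent replicates.

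The median SD of a probe set was 0.44 over the 3 singles and 0.24 over the 3 pools, a ratio of 1.85. The SD was larger among singles for 6918 of 9316 probe sets (74.3%). By rising quartile of level, the median SD was 0.71, 0.57, 0.39 and 0.25 in singles and 0.39, 0.29, 0.21 and 0.16 in pools. The singles had the larger median in every quartile, for bright genes as well as dim ones. The 3 renal vesicle pools had a median SD of 0.30 and the unpooled collecting ducts 0.23. In the fit, the 95% confidence interval of a difference reached a median of 0.82 to either side, a 1.77-fold change, and 0.44 in the brightest quartile. Single replicates 3, 4 and 5 departed by 2 or more (log2) from the mean of the other singles at 460, 267 and 272 probe sets. Pools did so at 87, 66 and 76. Among 3321 probe sets with a mean level of 7 or more, the counts were 35, 17 and 17 for singles and 5, 2 and 4 for pools.

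Some genes were steady from pool to pool and uneven between single structures. Single replicate 3 was the low one for several. Pnmt, the enzyme that makes adrenaline, was at 2.85, 8.53 and 8.25 in singles and 8.20, 8.32 and 8.25 in pools. Nectin3, a cell adhesion molecule, was at 4.52, 7.47 and 7.16 against 7.17, 7.27 and 7.16. Hacd3, an enzyme of very long chain fatty acid synthesis, was at 6.98, 9.91 and 9.17 against 9.63, 9.49 and 9.79. The 2 remaining singles lay near the pools for these genes. Atp6v0e2, a proton pump subunit, and Vps53, a membrane traffic protein, had the same shape, at 4.99, 7.33 and 7.73 and at 4.53, 7.28 and 6.52. Others were high in 1 single alone. Tgfbi, a secreted matrix protein induced by TGF-beta, was at 4.71, 9.64 and 5.45 in singles and 6.69, 6.35 and 6.69 in pools. Serpina1c, an alpha-1-antitrypsin gene with near-identical copies, was at 5.72, 8.64 and 6.32 against 6.25, 6.37 and 6.28, with replicate 4 again the highest. Cwc22, a splicing factor, was at 10.07, 6.42 and 6.89 against 6.51, 6.86 and 6.5, with replicate 3 the high one. In renal vesicle pools Cwc22 was as uneven, at 6.32, 10.13 and 7.14, so its spread is not particular to single structures. The other genes of this set had SDs of 0.08 to 0.64 among renal vesicle pools. These 8 genes were selected for a large spread among singles and a small one among pools, so their spread is a description and was not tested.

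**Figure D5:**
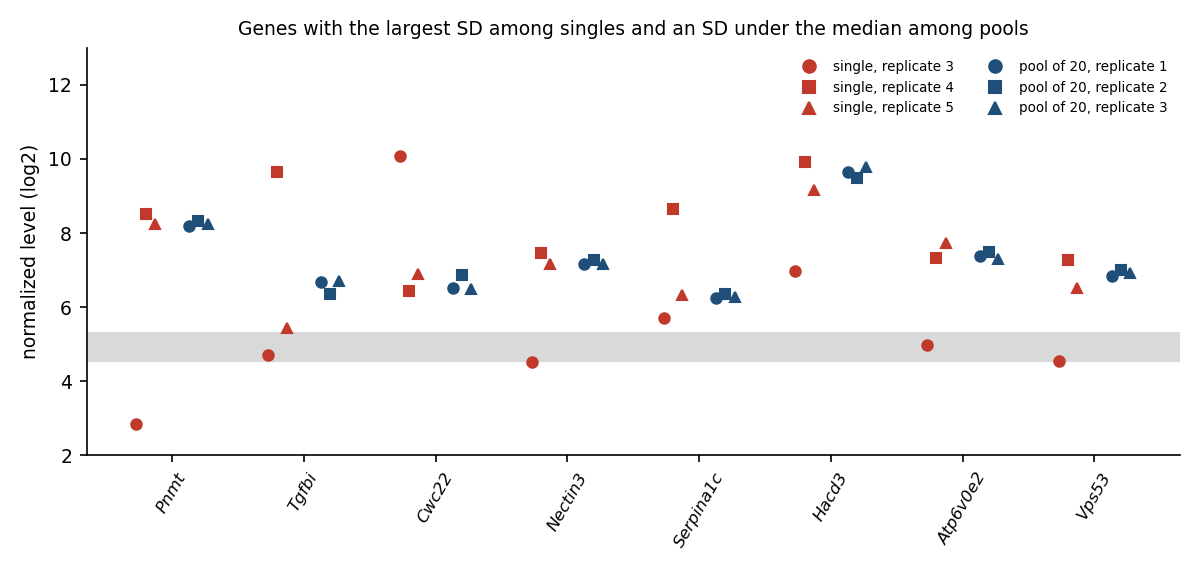
Levels (log2 of normalised intensity + 7.22) of the 8 genes selected for a large SD among single structures and a small one among pools, one point per array. The pools lie close together for each gene, while Pnmt ranges from 2.85 to 8.53 and Tgfbi from 4.71 to 9.64 among the singles.

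Genes seen only in single or only in pooled S-shaped bodies were few. Of 4909 genes above background in all pools, 89 were so in no single. Of 4176 above background in all singles, 17 were so in no pool. Among the brightest found in pools only were Reln, a secreted glycoprotein of neurons and lymphatic endothelium, and Sprr2e, a small cornified-envelope protein. Reln was at 4.84, 4.71 and 4.64 in singles and 7.27, 6.85 and 5.27 in pools, with a mean at least 2.68-fold lower in singles. It did not pass (fitted difference -1.74, -2.91 to -0.56, limma adjusted p = 0.152). Such folds compare means and carry no sampling error, here and in the genes below. Sprr2e was at 4.68, 2.85 and 2.85 against 7.46, 5.28 and 7.39 (at least 3.17-fold, adjusted p = 0.0881). Osbpl11, an oxysterol-binding protein relative, and Ccdc117 followed at at least 2.31-fold and 2.15-fold, and Parl and Gdnf completed the 6. Found in singles only, besides Ddr2, Serpind1 and Gpat4, were Ppp1r1a, Vdr and Gzmd. Ppp1r1a, an inhibitor of protein phosphatase 1, was at 7.88, 7.04 and 5.56 in singles and 2.85, 2.85 and 4.44 in pools (at least 4.47-fold higher, adjusted p = 0.0771). Vdr, the vitamin D receptor, was at 5.81, 5.82 and 6.46 against 4.51, 4.13 and 2.85 (at least 2.57-fold, adjusted p = 0.0887). Gzmd, a granzyme protease of cytotoxic cells with close paralogs, was at 5.46, 6.47 and 5.80 against 3.56, 3.86 and 3.31 (at least 2.37-fold, adjusted p = 0.0627). The split does not extend to the reference arrays. Ddr2, Gdnf, Osbpl11 and Ccdc117 were above background in all 3 renal vesicle pools and all 3 collecting ducts. Serpind1 was above it in none of them, and the others named here lay between.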

How the data were processed

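The authors' deposited table gives 1 intensity per probe set and array, on a linear scale with values below 0, for 12 Affymetrix MG_U74Av2 arrays. GCOS was used per the submitters' processing notes; how probe sets were summarised or arrays scaled is not stated in any source here. The 66 control probe sets were left out. Values were quantile-normalised over 12 arrays, floored at 0 and taken as log2(value + 7.22), the pseudocount being 25% of the median of 28.9; fold changes on this scale understate changes of dim genes. Probe sets at or above the 25th percentile of mean level over the 6 S-shaped body arrays (9316) were tested with limma 3.58.1 (R 4.3.3; lmFit, eBayes with trend) on those 6 arrays, with Benjamini-Hochberg adjustment over all of them. The script was tested on simulated data. Summaries used Python 3.11.15, pandas 2.3.3 and numpy 2.4.6.

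A probe set was above background where its deposited signal exceeded the distance of the array's 5th percentile below 0. Where a group was under background on all 3 arrays, "at least" folds compare the brighter group's mean with the mean, per array, of the higher of the background level and the probe set's own value. They are ratios of measured means and carry no sampling error. A gene is represented by its brightest probe set with 1 symbol, from GEO's platform annotation with symbols updated through RefSeq; 396 probe sets have several symbols and 1193 none. No 2 arrays held identical values. Named genes are, in each direction, the 10 called genes of largest difference with no overlap and signal in all 3 arrays of the brighter group; up to 3 called per list; a list of anchor genes, of which 21 are used here; the 8 most variable among singles; and 6 genes detected in 1 group only, each way. Other genes named are list members, given as examples. The members and lists were chosen with earlier results of these data known. The number of arrays limits the precision. A promoter search, planned for immediate early or heat shock genes that passed, was not run because none did, and a comparison by protein length was not run.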

Additional observations from a re-analysis of the deposited data

How the results depend on the processing

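No paired analysis was possible because the labels do not name the embryos. The replicate numbers, 3, 4 and 5 for the single structures and 1, 2 and 3 for the pools, do not show a shared origin. The 37 calls (23 higher, 14 lower) became 34 to 43 under other pseudocounts, quantile normalisation over 6 arrays, array weights or a 2-fold minimum, all within 1.5 times. Without normalisation there were 8345 calls, 8324 of them lower, with a median difference of -2.20, and Larp7 (-0.61), Gnrh1 (-0.56), Lrp10 (-0.90) and Glb1 (-0.84) changed sign. Scaling to the 75th percentile gave 146 calls (114 higher, 32 lower). Without the filter, 28 of 12422 passed (14 higher), 8 of them shared with the main result. The 50th percentile filter gave 19 (14 higher, 5 lower) of 6211 tested. A floor at the background level gave 3 (0 higher, 3 lower). Without the mean-variance trend 22 were lower. All 12 arrays in the fit gave 477 (238 higher, 239 lower), 33 of them shared. Leaving out each array in turn gave 1 to 72 calls, 0 to 35 higher and 1 to 37 lower. With the background taken from the lowest 1% or 10% of values, 36.2% or 60.8% of probe sets were above it in singles and 40.7% or 67.4% in pools. At 1%, 100 probe sets were detected in 3 pools and no single, and 20 in 3 singles and no pool. The ratio of median SDs, single over pool, stayed between 1.77 and 2.51. The causes were not tested beyond the changed number of probe sets or arrays. Signal over background limits dim probe sets: in the lowest quartile of level the 95% interval reached 1.13 (log2) to either side, and 0.44 in the highest.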
